A study of Oryza sativa with 4 samples.

Results

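Cytosolic translation elongation factors were followed in a ribosome profiling study of rice shoots. They were the 10 loci that the deposited table describes as EF-1 alpha, EF-1 beta, EF-1 gamma or EF-2, chosen from a fixed list of locus IDs. They carry 21 of the table's 14122 transcripts and make up 10 of its 10455 loci. Per the labels, wild-type rice plants 2 weeks old, grown in a greenhouse, spent 10 min with their shoots under water, held at 42 °C (heat) or 22 °C (control). Each temperature had 2 libraries, made from 10 shoots each. All groups were inverted in their pots and submerged, so the 22 °C shoots are a control for temperature and not untreated plants. The labels used here name no cultivar.

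Ribosome profiling sequences the pieces of mRNA that ribosomes protect from RNase. The table gives each transcript 1 score per temperature, read here as translational efficiency, which is footprints relative to RNA, since the series' design text names that as the aim. No formula, scaling or log step is stated. All 4 libraries are labelled as ribosome profiling, and no RNA library is among them, so the RNA part of the score could not be checked. Each score stands for both libraries of a temperature, so there is no spread between replicates and no test, and depth is unknown. Differences below are ratios of 2 pooled scores, described by size alone, and no neighbours in an order of scores can be told apart by an error. A lower score from fewer footprints and one from more RNA cannot be told apart. In whole shoots, a change in the mix of cells and a change of the score within cells cannot be told apart either. Of genes that define green tissue, all 5 Rubisco small subunit loci, 2 Rubisco activase loci and 13 chlorophyll a/b-binding loci had scores above 0 at both temperatures. So did 9280 of all 10455 loci, and the score is not read as an amount, so this says little about the tissue. The lowest chlorophyll a/b-binding score at 42 °C was 0.00024.

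Translation elongation adds amino acids to the growing chain in a cycle. EF-1 alpha, a GTPase, brings each aminoacyl-tRNA to the ribosome. The EF-1B complex, with its beta and gamma subunits, exchanges the GDP on spent EF-1 alpha for GTP; the beta subunit catalyses the exchange and the gamma subunit is a structural part of the complex. EF-2, another GTPase, moves the ribosome along the mRNA by a codon. Every cell that makes protein uses these factors, and their genes are often present as several similar copies.

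Most elongation factor loci had lower scores at 42 °C. EF-1 alpha and EF-2 were lower at each of their 6 loci, whereas each EF-1B subunit had a locus on either side. Of the 10 loci, 8 were lower at 42 °C and 2 were higher. The EF-1 alpha loci are neighbouring copies that may divide reads. With these copies averaged into 1, a setting chosen after seeing the data, 5 of 7 were lower and 2 higher. Of the 9280 genes above 0 at both temperatures, 48.9% were lower and 51.1% higher. Of the 10 loci, 5 were at least 2-fold lower, against 21.6% of all genes, and 0 were at least 2-fold higher, against 16.1%. Among the 5030 genes whose mean score lay in the range of the 10 loci, 0.0393 to 0.323, 19.3% and 15.2% passed 2-fold in these directions, and 50.2% were lower and 49.8% higher. The median log2 ratio of 42 over 22 °C was -0.99 over the 10 loci and 0.03 over all genes, whose quartiles were -0.83 and 0.67. An earlier analysis of these scores had shown elongation factors to be mostly lower, so these counts are not independent evidence of direction.

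**Figure D1:**
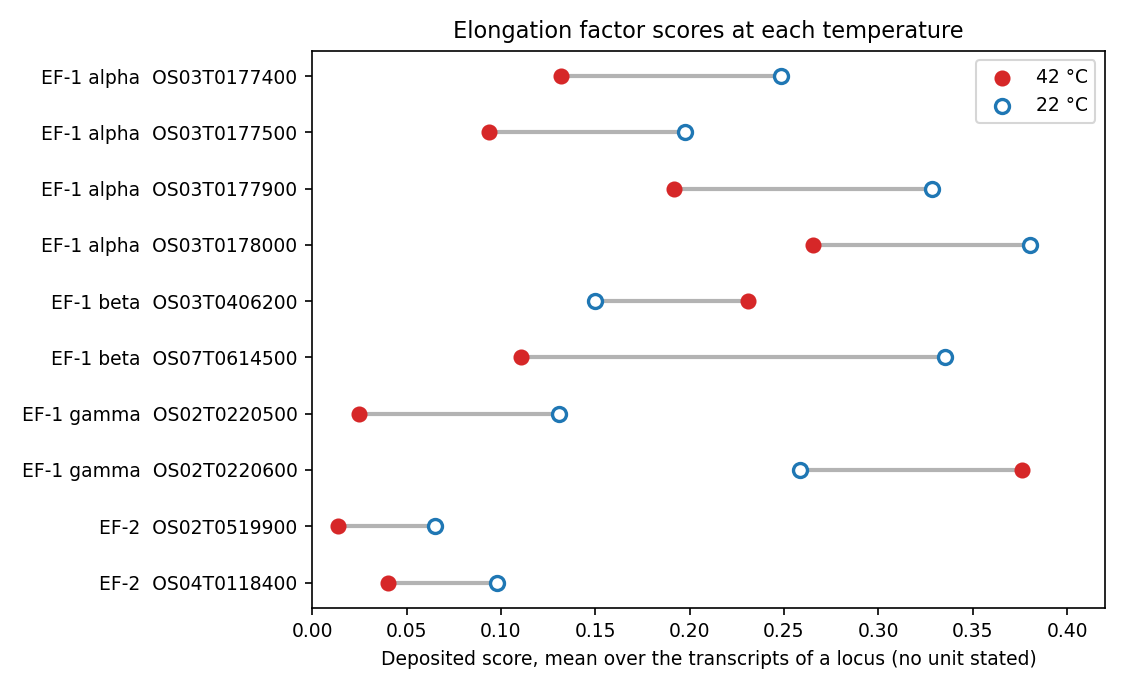
Scores of the 10 elongation factor loci (vertical axis) at 42 °C (filled) and at 22 °C (open), as the mean over the transcripts of each locus on the scale of the deposited table, which states no unit. In 8 loci the 42 °C point lies left of the 22 °C point; in OS03T0406200 and OS02T0220600 it lies right of it.

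EF-1 alpha is described at 4 neighbouring loci, whose numbers run from OS03T0177400 to OS03T0178000 on chromosome 3. Each had a lower score at 42 °C, by a similar step. OS03T0177400 scored 0.132 at 42 °C and 0.248 at 22 °C, a log2 ratio of -0.92. Its neighbour OS03T0177500 scored 0.0939 at 42 °C and 0.198 at 22 °C, a log2 ratio of -1.07. This was the only EF-1 alpha locus at least 2-fold lower.

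OS03T0177900 scored 0.192 at 42 °C and 0.328 at 22 °C, a log2 ratio of -0.78. OS03T0178000, with the highest EF-1 alpha score at both temperatures, had 0.265 at 42 °C and 0.381 at 22 °C, a log2 ratio of -0.52. The copies stood in the same order at both temperatures. Their differences of scores, 42 minus 22 °C, lay close together, between -0.137 and -0.104. On the ratio scale the copies were further apart: the ratio of 42 over 22 °C was 0.475 at OS03T0177500, the lowest-scored copy, and 0.697 at OS03T0178000. The highest copy scored 2.82 times the lowest at 42 °C and 1.92 times at 22 °C. The mean of the 4 loci was 0.171 at 42 °C and 0.289 at 22 °C. Similar copies may divide reads between them; the similarity of these copies was not measured, and a division of reads was not tested.

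Transcript models of the same EF-1 alpha locus gave lower scores at 42 °C in all 7 cases. At OS03T0177400 the transcripts differed in level: transcript 01 had 0.0867 at 42 °C and 0.199 at 22 °C, whereas transcript 02 had 0.177 at 42 °C and 0.298 at 22 °C. Transcript 01 alone was past 2-fold, at a log2 ratio of -1.20, and transcript 02 was at -0.75. At OS03T0177900 the models were nearly alike at 42 °C (0.191 and 0.192), and had 0.340 and 0.316 at 22 °C. At OS03T0178000 they had 0.266 and 0.265 at 42 °C, and 0.362 and 0.399 at 22 °C. In none of these 3 loci did the transcripts' scores at 42 °C overlap those at 22 °C. The share of all loci without overlap was not counted, so this does not set these loci apart. Transcripts of a locus share most of their sequence and are not replicates.

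The scores can also be placed among those of all other genes at the same temperature, which does not depend on how the temperatures were scaled to each other. Among the 9994 genes above 0 at either temperature, OS03T0178000 scored above 77.3% of genes at 42 °C and above 87.7% at 22 °C. OS03T0177500 scored above 53.4% at 42 °C and above 72.1% at 22 °C. All 4 EF-1 alpha copies thus stood lower among genes at 42 °C.

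The EF-1 beta loci went opposite ways. OS03T0406200, described as elongation factor 1 beta 2, scored 0.231 at 42 °C and 0.150 at 22 °C, a log2 ratio of 0.62. Both its transcripts were higher at 42 °C, with 0.234 and 0.228 against 0.139 and 0.161 at 22 °C. OS07T0614500 scored 0.111 at 42 °C and 0.335 at 22 °C, which is 3.03-fold lower at 42 °C, a log2 ratio of -1.60.

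The table describes transcript 01 of OS07T0614500 as similar to elongation factor 1 beta 2 and transcript 03 as similar to elongation factor 1-delta 1. Transcript 01 had 0.0671 at 42 °C and 0.315 at 22 °C, and transcript 03 had 0.155 at 42 °C and 0.356 at 22 °C. Their log2 ratios were -2.23 and -1.20, so both were past 2-fold. At 22 °C OS07T0614500 scored 2.24 times OS03T0406200, and at 42 °C OS03T0406200 scored 2.08 times OS07T0614500. The order of the EF-1 beta loci was therefore turned round between the temperatures. Among all genes OS07T0614500 scored above 57.1% at 42 °C and above 85.0% at 22 °C, whereas OS03T0406200 scored above 74.2% at 42 °C and above 64.3% at 22 °C.

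The EF-1 gamma loci, whose numbers adjoin on chromosome 2, had log2 ratios further apart than those of the other kinds of factor. OS02T0220500 scored 0.0250 at 42 °C and 0.131 at 22 °C, which is 5.22-fold lower at 42 °C and the lowest log2 ratio of the 10 loci, -2.38. OS02T0220600, with the same description, scored 0.376 at 42 °C and 0.259 at 22 °C, a log2 ratio of 0.54. It had the highest score of the 10 loci at 42 °C.

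At 42 °C OS02T0220600 scored 15.0 times OS02T0220500, and at 22 °C 1.98 times. The mean of both gamma loci was close to level, 0.201 at 42 °C and 0.195 at 22 °C, although neither locus was. Each locus is represented by 1 transcript, so no second model bears on either value, and whether similar copies divide reads here was not tested. Among all genes OS02T0220500 scored above 29.1% at 42 °C and above 60.6% at 22 °C. OS02T0220600 scored above 84.4% at 42 °C and above 78.8% at 22 °C.

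**Figure D2:**
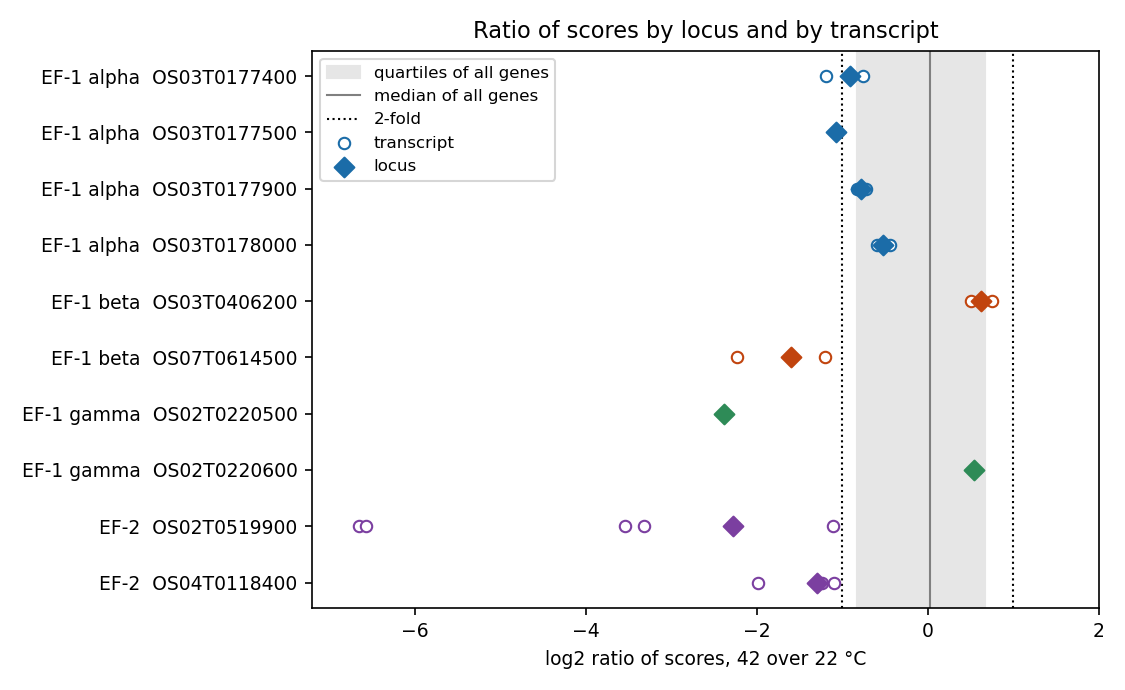
Log2 ratio of scores, 42 over 22 °C (horizontal axis), for each of the 10 loci (diamonds) and their 21 transcripts (circles), with the median and the range between the quartiles of all genes in grey and 2-fold as dotted lines. Transcripts of a locus lie on the same side of 0 as the locus, and the EF-2 locus OS02T0519900 has the widest range, from -6.65 to -1.11.

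EF-2 had the lowest mean score of the 4 kinds of factor at both temperatures. Both its loci were at least 2-fold lower at 42 °C, against 21.6% of all genes. OS02T0519900 scored 0.0135 at 42 °C and 0.0652 at 22 °C, a log2 ratio of -2.27. OS04T0118400 scored 0.0399 at 42 °C and 0.0979 at 22 °C, a log2 ratio of -1.29. The mean of both loci was 0.0267 at 42 °C and 0.0815 at 22 °C.

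All 8 EF-2 transcripts were at least 2-fold lower, against 22.4% of all transcripts, but by very different ratios. Models of a locus share sequence, so these are not separate observations, and the share over all transcripts is not matched to their low scores. At OS02T0519900, transcript 01, the model described as EF-2, had 0.00606 at 42 °C and 0.0705 at 22 °C. The other 4 models, described as similar to protein H0613H07.5, had scores from 0.000203 to 0.0533 at 42 °C, and from 0.0203 to 0.115 at 22 °C. Transcript 03 had the highest score of the locus at both temperatures and the log2 ratio nearest to 0, -1.11. Transcripts 04 and 05 lay near 0 at 42 °C, and their log2 ratios of -6.65 and -6.57 rest on scores of 0.000203 and 0.000498.

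At OS04T0118400, transcript 01, also described as EF-2, had 0.0704 at 42 °C and 0.166 at 22 °C. Transcript 02 had 0.0371 at 42 °C and 0.0791 at 22 °C, and transcript 03 had 0.0123 at 42 °C and 0.0488 at 22 °C. In both EF-2 loci the transcripts' scores at 42 °C overlapped those at 22 °C. How many of all loci show such overlap was not counted. Among all genes OS02T0519900 scored above 21.2% at 42 °C and above 43.3% at 22 °C, and OS04T0118400 above 36.9% at 42 °C and above 52.9% at 22 °C.

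Across the 4 kinds of factor, the order of the loci changed between the temperatures. At 42 °C the highest scores were those of OS02T0220600 (gamma), OS03T0178000 (alpha) and OS03T0406200 (beta). At 22 °C they were those of OS03T0178000 (alpha), OS07T0614500 (beta) and OS03T0177900 (alpha). The highest of the 10 loci scored 27.9 times the lowest at 42 °C and 5.84 times at 22 °C. The loci therefore lay further apart at 42 °C.

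The sizes of the ratios depended on how low scores were treated. With 0.1 added to every score, the 2-fold difference remained at OS07T0614500 (-1.05), where 2.82% of all genes were at least 2-fold lower. It was lost at OS03T0177500 (-0.62), OS02T0220500 (-0.88), OS02T0519900 (-0.54) and OS04T0118400 (-0.50). All 10 loci kept their direction under every alternative that was run, which says little because the outcome was largely fixed. Adding the same amount to both scores cannot change a direction, and every transcript lay on the same side of 0 as its locus. Centring on a median ratio of other genes shifted log2 ratios by 0.03 or 0.27, less than any locus's own ratio.

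**Figure D3:**
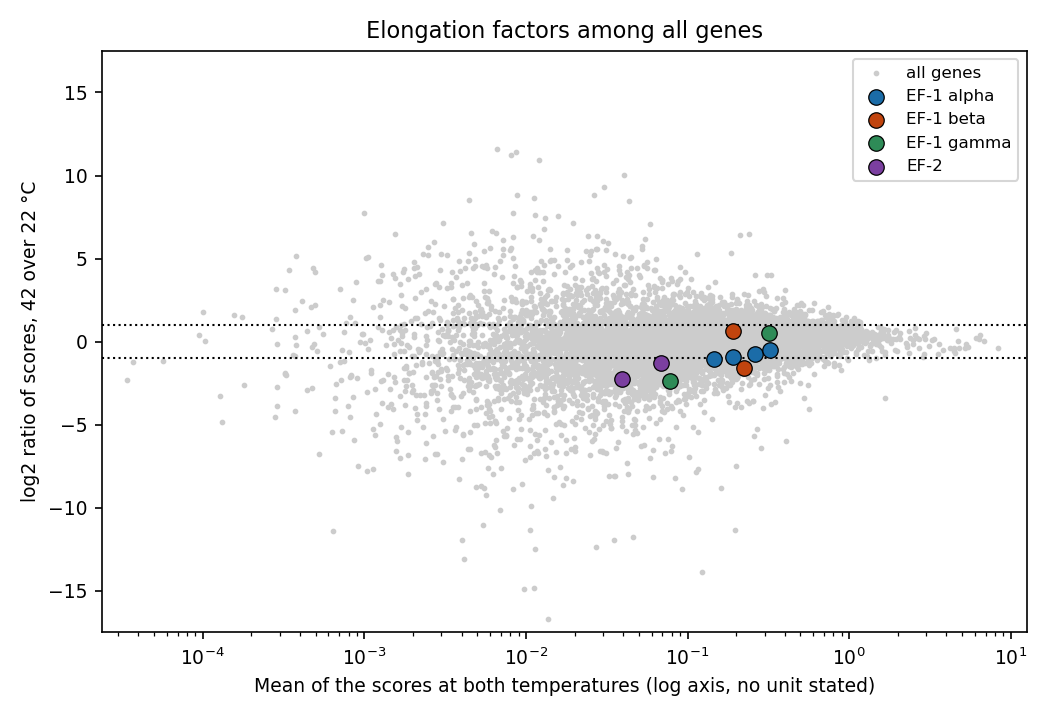
Log2 ratio of scores, 42 over 22 °C, against the mean of both scores (log axis, no unit stated) for 9280 genes above 0 at both temperatures (grey) and the 10 elongation factor loci (coloured by kind), with 2-fold as dotted lines. The EF-2 loci and OS02T0220500 lie at lower mean scores than the EF-1 alpha loci, where the ratios of all genes spread more widely.

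Another 4 loci have EF-1 or EF1B in their descriptions and are not among the 10; 2 were lower and 2 higher at 42 °C. OS07T0662500, similar to EF-1-beta', a nucleotide exchange subunit, scored 0.458 at 42 °C and 0.323 at 22 °C, a log2 ratio of 0.51. OS06T0571400, similar to an EF-1 gamma-like protein, scored 0.0736 at 42 °C and 0.0718 at 22 °C. With these added, 8 of 12 loci were lower and 4 higher, and the median log2 ratio was -0.85. The beta and gamma subunits of EF-1B then had 2 loci lower and 4 higher, counting OS06T0571400, whose log2 ratio was 0.04. The remaining entries are described by a domain alone: OS01T0220300 (EF1B/ribosomal protein S6) scored 0.105 at 42 °C and 0.243 at 22 °C, past 2-fold at a log2 ratio of -1.21, and OS01T0268800 (ubiquitin-associated/EF1B N-terminal) scored 0.0144 at 42 °C and 0.0170 at 22 °C.

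Elongation factors of the bacterial type serve chloroplasts and mitochondria, with EF-Tu in the role of EF-1 alpha, EF-Ts in that of the exchange complex and EF-G in that of EF-2. The word list for these held 8 loci, of which 6 had scores above 0 at both temperatures. Of the 6, 4 were lower and 2 higher, where 48.9% of all genes were lower, with a median log2 ratio of -0.21. A list of 6 is too short to give a direction. At least 2-fold lower were 2 (33.3%), against 21.6% of all genes. The EF-Tu loci were near level: the chloroplast EF-Tu OS02T0595700 had 0.507 at 42 °C and 0.589 at 22 °C, and OS03T0851100, described as EF-Tu and EF-TuM, had 0.130 at 42 °C and 0.149 at 22 °C.

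EF-G and EF-Ts scores were low throughout. The mitochondrial EF-G OS03T0565500 had 0.0103 at 42 °C and 0.0375 at 22 °C. OS04T0538166, similar to chloroplast EF-G, was listed at 0 at 42 °C and had 0.0359 at 22 °C, and OS04T0538100, described by EF-G domains alone, was listed at 0 at 42 °C and had 0.0124 at 22 °C. OS12T0541500, similar to EF-Ts, had 0.000661 at 42 °C and 0.00620 at 22 °C. EF-P, which in bacteria helps ribosomes through proline runs, is described at a pair of loci, both higher at 42 °C: OS11T0116400 had 0.156 at 42 °C and 0.123 at 22 °C, and OS12T0115900 had 0.1995 at 42 °C and 0.131 at 22 °C.

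eIF-5A, named as an initiation factor but known to promote elongation and termination, is the eukaryotic relative of EF-P. Of its 4 loci 3 were lower at 42 °C, where 48.9% of all genes were lower. At least 2-fold lower was 1 of them (25%, against 21.6% of all genes). A list of 4 is too short to give a direction. OS12T0507200 had 0.0566 at 42 °C and 0.183 at 22 °C. OS03T0758800, with the same description, had 0.121 at 42 °C and 0.155 at 22 °C. OS07T0112800 had 0.148 at 42 °C and 0.167 at 22 °C, and OS07T0597000 had 0.248 at 42 °C and 0.208 at 22 °C. The median log2 ratio of the eIF-5A loci was -0.27.

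Release factors end translation at stop codons. Of 4 loci, 3 were higher at 42 °C, where 51.1% of all genes were higher, and 1 was at least 2-fold higher (25%, against 16.1% of all genes). A list of 4 is too short to give a direction. That was OS07T0587400, similar to subunit 1 of the eukaryotic release factor, with 0.346 at 42 °C and 0.140 at 22 °C and both its transcripts higher. Of the other release factor loci, OS03T0249200 had 0.132 at 42 °C and 0.104 at 22 °C, and OS11T0657100 had 0.0327 at 42 °C and 0.0301 at 22 °C. OS05T0277300 had 0.00785 at 42 °C and 0.0149 at 22 °C. The median log2 ratio of the 4 loci was 0.23. Only OS07T0587400 is described as eukaryotic, and the descriptions of the others name no compartment.

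Longer lists of the translation machinery were taken by words in the descriptions and hold some genes of other kinds. Their shares are given beside those of all genes, of which 21.6% passed 2-fold on the lower side and 16.1% on the higher. At any size, 48.9% of all genes were lower and 51.1% higher. Of 42 initiation factor loci above 0 at both temperatures, 21 were lower and 21 higher at 42 °C. At least 2-fold lower were 8 (19.0%) and at least 2-fold higher 4 (9.52%), and the median log2 ratio was -0.08, or 0.093 with the locus listed at 0 at 22 °C ranked as highest. The best-scored of those past 2-fold was eIF-4A locus OS02T0146600, an RNA helicase of the cap-binding complex, with 0.589 at 42 °C and 0.292 at 22 °C. The next among the higher were OS05T0592600, with an initiation factor 2 related domain (0.397 at 42 °C and 0.107 at 22 °C), and OS12T0607100, described as eIF-2 gamma or a heterochromatin protein (0.310 at 42 °C and 0.144 at 22 °C). Among the lower were OS02T0788400, like a subunit of eIF-3 (0.132 at 42 °C and 0.319 at 22 °C), OS01T0195500, with a SUI1 domain (0.0972 at 42 °C and 0.248 at 22 °C), and OS04T0499300, an initiation factor-like protein (0.0723 at 42 °C and 0.186 at 22 °C).

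Aminoacyl-tRNA synthetases charge the tRNAs that EF-1 alpha carries. Of 37 loci above 0 at both temperatures, 22 (59.5%) were lower and 15 higher at 42 °C, where 48.9% of all genes were lower. At least 2-fold lower were 12 (32.4%) and at least 2-fold higher 5 (13.5%), and the median log2 ratio was -0.31. Ranking the 4 loci listed at 0 at 42 °C alone as lowest set the median to -0.48. Loci for the same amino acid went both ways. Of the loci described as similar to glutamyl-tRNA synthetase, OS02T0121000 had 0.0828 at 42 °C and 0.252 at 22 °C, and OS01T0271200 had 0.121 at 42 °C and 0.0396 at 22 °C. The asparaginyl-tRNA synthetase OS07T0485400 had 0.0848 at 42 °C and 0.289 at 22 °C. OS02T0767700, described by a synthetase-associated domain, had 0.0552 at 42 °C and 0.142 at 22 °C. Among the higher were the glutaminyl enzyme OS01T0185200 (0.110 at 42 °C and 0.0188 at 22 °C) and the seryl enzyme OS11T0610900 (0.0886 at 42 °C and 0.0352 at 22 °C).

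Ribosomal proteins, the main partners of the elongation factors, were mostly lower too. Of 222 loci above 0 at both temperatures, 156 (70.3%) were lower and 66 higher at 42 °C, where 48.9% of all genes were lower. At least 2-fold lower were 72 (32.4%) and at least 2-fold higher 5 (2.25%), and the median log2 ratio was -0.43. With loci listed at 0 at 1 temperature ranked as well, the median was -0.46. OS01T0220300 is in this list as well. Organelle types were left out by words in the descriptions alone, so the compartment of the rest was not checked. The highest-scored of those past 2-fold were lower at 42 °C: S7 locus OS01T0856850 had 0.237 at 42 °C and 0.730 at 22 °C, L22 locus OS03T0343500 had 0.244 at 42 °C and 0.502 at 22 °C, and L27a locus OS03T0408300 had 0.185 at 42 °C and 0.517 at 22 °C. Among the higher, another S7 locus, OS11T0544200, had 0.124 at 42 °C and 0.00400 at 22 °C. OS01T0571200, an L34 locus, had 0.0721 at 42 °C and 0.0264 at 22 °C. OS02T0141300 had 0.0397 at 42 °C and 0.0110 at 22 °C, but it is described by a ribosomal protein S5 domain fold alone and may not be a ribosomal protein. The median of the 10 elongation factor loci, -0.99, was lower than those of these 7 lists over genes above 0 at both temperatures. That order did not hold for the organelle-type list when its 2 loci listed at 0 at 42 °C were ranked as lowest, which set its median to -1.04. With lists this unequal in size and no replicates, no test of that difference was run.

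**Figure D4:**
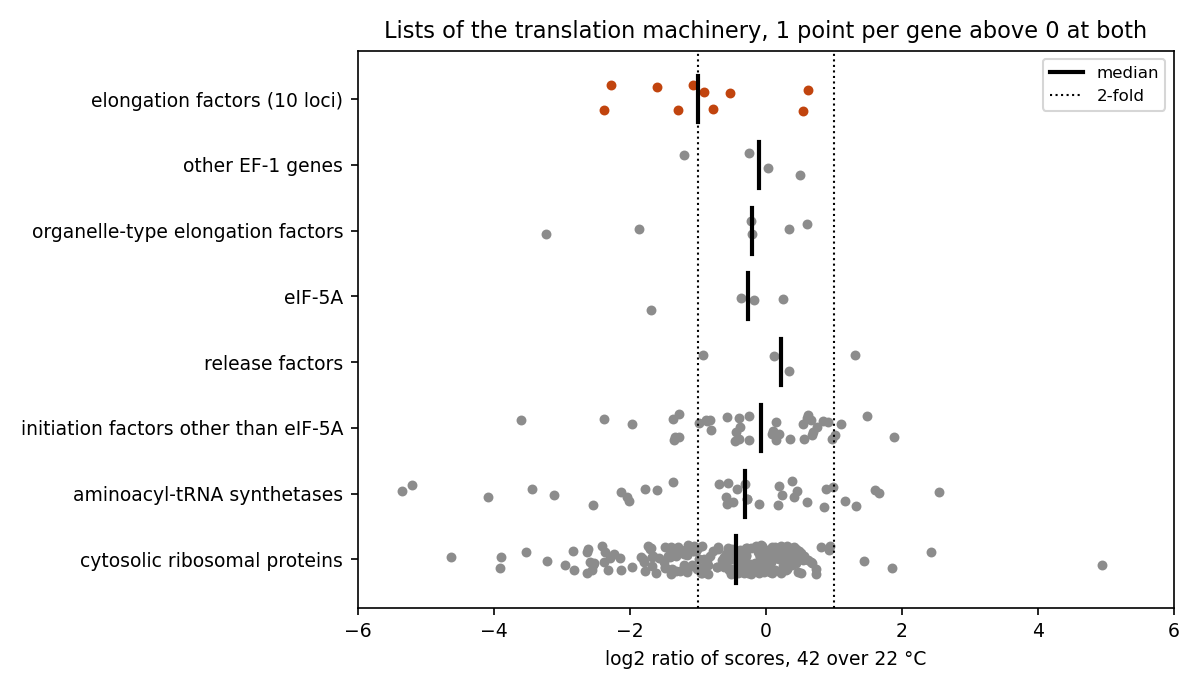
Log2 ratio of scores, 42 over 22 °C, for the 10 elongation factor loci and 7 other lists of the translation machinery, 1 point for each gene above 0 at both temperatures, with medians as bars and 2-fold as dotted lines. The elongation factor median is -0.99 and those of the other lists, over genes above 0 at both temperatures, lie between -0.43 (cytosolic ribosomal proteins) and 0.23 (release factors). Lists were taken by words in the descriptions, and "cytosolic" means that no organelle type was named.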

How the data were processed

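Ribosome footprints of rice shoots were sequenced in 4 libraries, 2 per temperature. The submitters' processing notes name cutadapt and Bowtie2 for the reads. Their versions, the genome build, the annotation and each library's depth were not found in the sources used here. The authors deposited a score for each transcript at either temperature, with no replicate in the column names, and a column of differences between these scores. The deposited difference matched 42 minus 22 °C within 1e-05 in all 14122 transcripts.

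Scores were averaged over the transcripts of a locus. The log2 ratio of 42 over 22 °C was taken for loci above 0 at both temperatures, and 2-fold was the size called. No test was possible without values per replicate. The members and lists were chosen with earlier results of these data known. Named were all 10 members, every gene of lists of at most 12 loci, and up to 3 genes past 2-fold per direction with the highest mean scores in longer lists. The ratio step was checked on the deposited 22 °C scores multiplied by set factors, without noise. That checks the calculation and not the values reported here. No listed locus was named in the reference gene table for assembly ASM3414082v1 (0 matches), so chromosomes are those in the locus IDs. Python 3.11.15, numpy 2.4.6, pandas 2.3.3 and matplotlib 3.10.9 were used.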

Additional observations from a re-analysis of the deposited data

How the results depend on the processing

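Of the 83 values of single loci recomputed under alternatives, 76 kept their side of 2-fold and 0 changed direction. Leaving out transcripts with suffix 00 removed none of the 10 loci's transcripts, and minimum scores cannot move a locus's own ratio. Values under these settings repeat the main values, so they kept their side of 2-fold by construction. The 3 loci with 1 transcript were also unchanged by the settings on transcripts. The 76 of 83 therefore overstates how stable the 2-fold calls were. Adding 0.1 to both scores cannot change a direction, and every transcript lay on the same side of 0 as its locus. The lack of changed directions was therefore largely fixed in advance. The number of loci past 2-fold, 5, became 1 with 0.1 added to every score (2.82% of all genes lower and 2.62% higher), and 1 of 4 loci at a mean score of at least 0.2 (7.52% and 11.6% of such genes). It became 8 at a threshold of 1.5-fold (7 lower, 1 higher; 30.8% and 27.8% of all genes) and 3, all lower, at 3-fold (13.5% and 8.20%). With each transcript counted on its own it was 13 of 21, all lower (22.4% and 16.9% of all transcripts). With 0.1 added, OS03T0177500 (-0.62), OS02T0220500 (-0.88), OS02T0519900 (-0.54) and OS04T0118400 (-0.50) fell short of 2-fold, since the addition weighs most on low scores. OS03T0177400 passed it by its lowest-numbered transcript (-1.20), and OS03T0177400 (-1.18) and OS03T0177900 (-1.04) did after centring on the median ratio of genes whose mean score reached 0.2, a shift of 0.27 on the log2 scale. The median over loci stayed between -1.29 and -0.55. The lowest of these, with the EF-1 alpha copies averaged into 1, and the count with EF-1-beta' and the gamma-like locus added were chosen after seeing the data. So was ranking genes at 0 at one temperature in the medians of the other lists, which moved the organelle-type list to -1.04 and turned the initiation factor list to 0.093. The same ranking set the synthetase list to -0.48 and the ribosomal protein list to -0.46. No paired analysis was possible because the columns carry no replicate, and no replicate could be left out.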
